A study of Mus musculus with 25 samples.

Results

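The comparison described here asked what loss of p53 added to loss of Rb in mouse liver 1 day after exposure to a carcinogen. It set 5 arrays of livers lacking both genes (DKO_DEN) against 4 arrays of livers lacking Rb alone (RbKO_DEN). These 9 arrays, of 25 in the series, were chosen by their sample labels. Each array measured RNA from frozen liver of mice of the FVB;129 strain. All mice were 14 days old and were collected 24 h after an injection. The animals behind the 9 arrays had received the carcinogen diethylnitrosamine (DEN) intraperitoneally at 20 mg/kg. Mutant mice had loxP sites in Rb, p53 or both and an albumin-driven Cre recombinase, which acts in hepatocytes, so that both groups compared share the Rb deletion. Whether Cre also acted in other cell types of the liver was not checked here. The other groups were 5 DEN-treated arrays of control genotype (WT_DEN), 5 DEN-treated arrays lacking p53 alone (p53KO_DEN), and saline-treated arrays of control genotype (WT_untreated, 3 arrays) and of the double mutant (DKO_untreated, 3 arrays). The labels do not say whether arrays of a group came from separate animals, so p-values measure the spread between these arrays, which may be technical.

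DEN is activated by cytochrome P450 enzymes of hepatocytes into a species that alkylates DNA. The transcription factor p53, stabilised by DNA damage kinases, switches on genes of cell cycle arrest, DNA repair and cell death, and also genes that shut it down again, such as Mdm2. Rb holds E2F transcription factors inactive until cyclin-dependent kinases phosphorylate it, and E2F in turn drives genes of DNA replication. Both proteins are lost in many liver tumours.

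The array names divide the series into 3 sets of 16, 4 and 5 arrays. RbKO_DEN replicates 1 to 3 and DKO_DEN replicates 1 to 3 belong to set 1, RbKO_DEN replicate 4 to set 2, and DKO_DEN replicates 4 and 5 to set 3. Differences therefore come from a fit with the set as a term, and values within set 1 alone, 3 arrays against 3, are given beside them. Array medians ran from 4.22 to 4.43 log2, and the number of arrays limits the precision. Hepatocyte markers were present as the tissue label says, with a mean of 9 markers between 11.40 and 11.81 log2 on the 9 arrays. Trp53 was not analysed here, so the p53 genotype was not checked on the gene itself. Rb1 (probe set 10421526) read 5.55, 5.64, 5.79 and 6.28 log2 in RbKO_DEN and 5.18, 5.57, 5.51, 5.82 and 5.35 log2 in DKO_DEN. These overlapped the 5.04 to 6.02 log2 of WT_DEN, but whether the probes lie in the deleted part is not given, so Rb1 checks nothing. The sexes are not in the labels. Xist was near 10 log2 on RbKO_DEN replicates 2 and 3 and on DKO_DEN replicates 3 and 5. DKO_DEN replicate 5 carried Xist at 10.07 log2 together with Eif2s3y, a Y-linked gene, at 4.17 log2, between the 2.40 and the 7.76 log2 that bound the other DKO_DEN arrays.

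More genes were called lower than higher when p53 was lost on top of Rb. Of 15951 genes tested, 164 (1.03%) passed a Benjamini-Hochberg adjusted p of 0.05 in limma, and such genes are referred to as called. Of them 141 (0.884% of genes tested) were lower in DKO_DEN and 23 (0.144%) were higher, which is 86% lower (73% when the arrays were quantile normalized again). Their log2 differences were between 0.44 and 2.34 in size, and the median over all genes tested was -0.02. Of all genes tested, 8436 lay below 0 and 7510 above. All 164 had the same sign in set 1 alone, but its arrays are among the same 9, so the signs are not independent. In set 1 alone 223 genes (1.4%) were called, 74 higher (0.464%) and 149 lower (0.934%). When quantile normalized again, these became 79 higher and 93 lower. Of the 164, 98 were among the 223. The 9 arrays of the 2 groups did not overlap on 89 of the 164 genes, with DKO_DEN below on 79 and above on 10. Among all genes tested the share was 3.96% (3.28% below, 0.677% above), but the 164 were chosen for a difference on these same arrays, so their share is a description. The count fell to 65 without RbKO_DEN replicate 1, to 80, 95 and 106 without DKO_DEN replicates 1, 2 and 3, and to 30 with no term for the set.

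Several p53 target genes were lower in the double mutant. From 4 lists of known targets and regulators of p53, 69 of 76 genes were tested. Of these, 10 (14.5%) were called lower and none higher, against 0.884% and 0.144% of all genes. The remaining 59 did not pass the test. A total of 56 lay below 0, beside 8436 of the 15951 genes tested, and the median of the 69 was -0.28 (-0.33 in set 1 alone). In set 1 alone 14 of the 69 were called lower and none higher. The count of 10 became 3 without RbKO_DEN replicate 1, 4 without DKO_DEN replicate 1 or 2, 5 without DKO_DEN replicate 3, 6 without RbKO_DEN replicate 2, 15 without DKO_DEN replicate 4, 17 with array weights, 5 when the arrays were quantile normalized again and 2 with no set term, and no member was called higher under any alternative.

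Ephx1 (probe set 10360684, chromosome 1), the microsomal epoxide hydrolase that detoxifies reactive epoxides and a known p53 target, had the smallest p of the p53 lists. Its RbKO_DEN values were 9.44, 9.17, 9.20 and 9.11 log2. In DKO_DEN it read 7.86, 7.78, 8.12, 7.83 and 7.37 log2. No DKO_DEN array reached the lowest RbKO_DEN array. The difference was -1.47 (SE 0.16, adjusted p = 2.69e-05), a signal 2.77-fold higher in RbKO_DEN, and -1.35 in set 1 alone. WT_untreated arrays read 7.36, 7.66 and 6.90 log2, so 1 of the 5 double mutant arrays after DEN lay in the untreated range and 4 above it. Dglucy, a mitochondrial enzyme of D-glutamate breakdown, was the other called member of the list of further p53 targets. It read 5.78, 5.96, 5.84 and 5.68 log2 in RbKO_DEN and 4.97, 5.16, 5.25, 5.23 and 5.17 log2 in DKO_DEN, again without overlap. It fell by 0.80 (SE 0.14, adjusted p = 0.00535). The calls of Ephx1 and Dglucy held without each of the 9 arrays in turn. The other 21 tested genes of that list were not called. Sulf2, a heparan sulphate sulphatase, had -0.52 (adjusted p = 0.128) and the long noncoding RNA Pvt1 -0.48 (adjusted p = 0.127). The median of the 23 was -0.27.

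Among regulators of p53 itself, Mdm2, the ubiquitin ligase that degrades p53, fell by 1.09 (SE 0.24, adjusted p = 0.0200). Its values were 8.08, 7.90, 7.72 and 8.39 log2 in RbKO_DEN and 6.74, 6.50, 6.73, 8.50 and 7.53 log2 in DKO_DEN. The groups overlapped through DKO_DEN replicate 4, while the other 4 DKO_DEN arrays lay below all RbKO_DEN arrays. Ccng1, encoding cyclin G1, which recruits a phosphatase to Mdm2, read 10.12, 9.88, 9.88 and 10.43 log2 in RbKO_DEN against 8.77, 8.73, 9.15, 9.86 and 9.11 log2 in DKO_DEN. Only DKO_DEN replicate 4 came near the lowest RbKO_DEN value, and the difference was -0.89 (SE 0.21, adjusted p = 0.0389). Trp53inp1, a stress protein that promotes p53-dependent death, fell by 0.93 (SE 0.23, adjusted p = 0.0428). Ppm1d, the phosphatase that switches off p53 and its kinases, had -0.58 (adjusted p = 0.0558). The 12 tested members of this list had a median of -0.45, 10 of them lay below 0, and 3 (25%, against 0.884% of all genes) were called lower. Single arrays ended these calls: 5 of the 9 arrays for Mdm2 (adjusted p up to 0.0877 without DKO_DEN replicate 2), 8 for Ccng1 (up to 0.142 without DKO_DEN replicate 1) and 5 for Trp53inp1 (up to 0.129 without DKO_DEN replicate 1).

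Genes of arrest and repair fell in part. Polk (probe set 10411306, chromosome 13) encodes DNA polymerase kappa, which copies past bulky DNA adducts. It read 7.43, 7.17, 7.44 and 7.42 log2 in RbKO_DEN and 6.22, 6.03, 6.31, 6.76 and 6.26 log2 in DKO_DEN. The groups did not overlap, and the difference of -1.20 (SE 0.15, adjusted p = 0.000219) was called without each array in turn. Plk2, a polo-like kinase induced by p53, fell by 1.27 (SE 0.29, adjusted p = 0.0298), from 7.48, 7.24, 7.21 and 7.05 log2 in RbKO_DEN to 5.68, 5.91, 6.02, 6.73 and 6.18 log2 in DKO_DEN. Psrc1, a microtubule-binding protein, fell by 0.90 (SE 0.20, adjusted p = 0.0226). Ercc5, an endonuclease of nucleotide excision repair, had -0.57 (adjusted p = 0.0758). Cdkn1a was not analysed here. The other 16 of 19 tested members were not called, among them Btg2, an antiproliferative gene, at -0.98 (adjusted p = 0.22) and Gadd45a at 0.19. A second translesion gene from a separate list of DNA damage signalling, Rev1, the scaffold that recruits polymerases such as that of Polk to a stalled fork, fell by 0.85 (SE 0.13, adjusted p = 0.00140). It was the only called gene of the 24 tested there (4.17%, against 0.884% of all genes), and it held without each array. The call of Plk2 was lost without each of 7 arrays (adjusted p up to 0.110 without DKO_DEN replicate 1) and that of Psrc1 without each of 5 (up to 0.0930 without DKO_DEN replicate 2).

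Of 15 tested p53 targets of cell death, 2 (13.3%, against 0.884% of all genes) were called lower and none higher. Apaf1, the core of the apoptosome, read 6.72, 6.17, 6.22 and 6.31 log2 in RbKO_DEN and 5.78, 5.46, 5.75, 6.60 and 5.91 log2 in DKO_DEN. DKO_DEN replicate 4 lay inside the RbKO_DEN range, the other 4 below it, and the difference was -0.75 (SE 0.15, adjusted p = 0.0137). Fas, the death receptor, read 8.18, 8.20, 8.24 and 7.85 log2 in RbKO_DEN and 7.39, 7.69, 7.42, 7.02 and 6.69 log2 in DKO_DEN, without overlap, a fall of 0.81 (SE 0.18, adjusted p = 0.0288). The receptor genes Tnfrsf10b (-0.82) and Eda2r both had an adjusted p of 0.0580 in the fit to all sets, and Eda2r was called in set 1 alone at -1.07. The mitochondrial death genes Bbc3 (-0.19) and Pmaip1 (-0.25) were not called. The median of the 15 was -0.25. The call of Apaf1 was lost without each of 2 arrays (adjusted p up to 0.0811 without RbKO_DEN replicate 1) and that of Fas without each of 6 (up to 0.0810 without DKO_DEN replicate 1).

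Set 1 alone gave -1.24 for Mdm2, -1.08 for Ccng1, -0.72 for Trp53inp1, -1.16 for Polk, -1.44 for Plk2, -1.07 for Psrc1, -0.71 for Fas and -0.73 for Dglucy, all called there. Apaf1 had -0.70 in set 1 alone and was not called there.

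**Figure D1:**
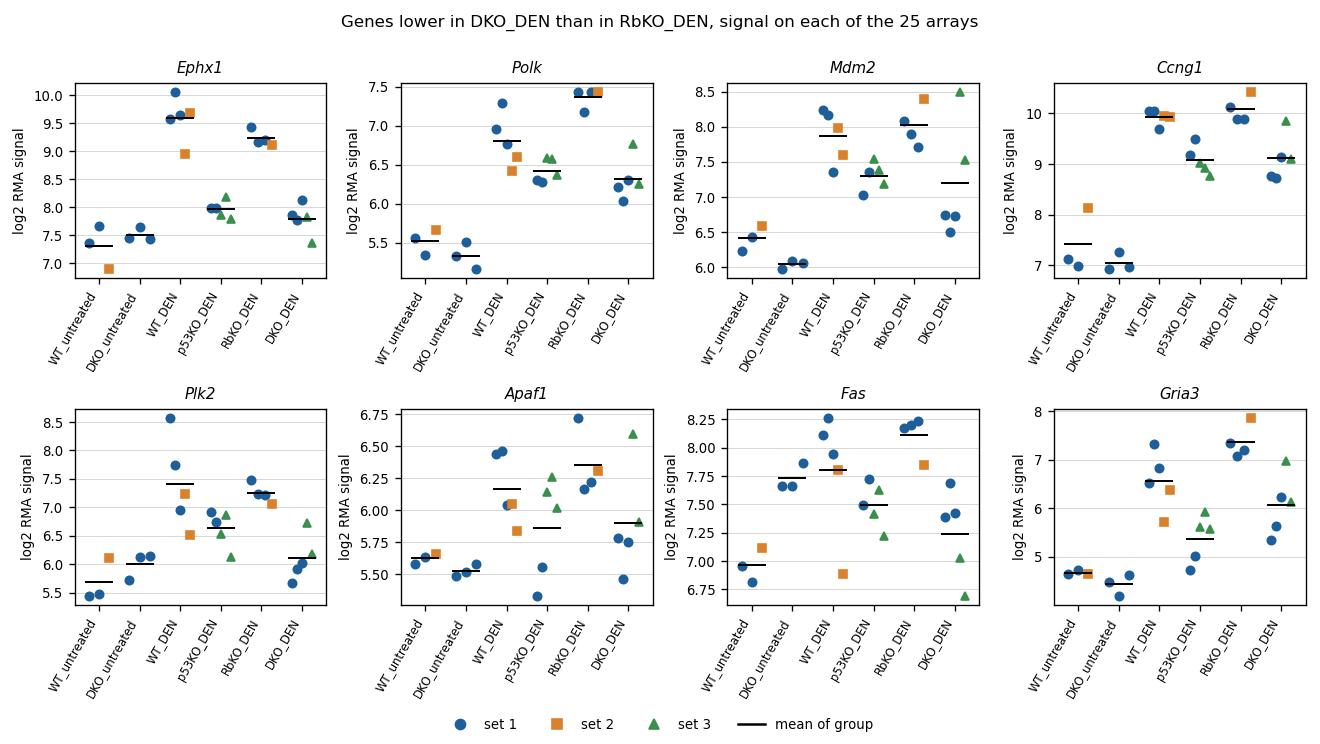
Log2 RMA signal (vertical axis) of 8 genes called lower in DKO_DEN than in RbKO_DEN, for the 6 groups (horizontal axis); each point is an array, its shape and colour the array set, and the bar the group mean. All 5 DKO_DEN points of Ephx1, Polk, Plk2, Fas and Gria3 lie below all 4 RbKO_DEN points, while those of Mdm2 and Apaf1 overlap through the set 3 array DKO_DEN replicate 4.

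The promoters of the called genes were searched for the p53 decamer, the consensus of 10 letters that p53 binds in pairs, in the windows from 250 bases before to 50 bases after RefSeq gene starts (GRCm38.p6). Both strands were searched, which for this palindromic consensus are the same. It was found in 7.26% of the 15776 windows of all genes tested, in 10.1% of the 149 windows of genes called lower, in 12.5% of the 16 windows of genes called higher and in 20.5% of the 73 windows of the 4 p53 lists. A pair of decamers at most 13 bases apart was in 6 windows of all genes and in none of the genes called. A match is only a stretch of letters, and well-known p53 sites can lie outside such windows. The stretches below come from 5 genes called lower, with the decamer in capitals, each written in the direction of its gene. They are at chr10:117710910-117710969 (Mdm2, minus strand), chr11:40755437-40755496 (Ccng1, minus), chr13:96519384-96519437 (Polk, minus), chr5:8797931-8797990 (Abcb1b, plus) and chr2:28466381-28466440 (1700007K13Rik, minus).
Mdm2: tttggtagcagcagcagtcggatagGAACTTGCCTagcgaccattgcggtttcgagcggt
Ccng1: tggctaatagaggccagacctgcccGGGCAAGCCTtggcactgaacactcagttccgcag
Polk: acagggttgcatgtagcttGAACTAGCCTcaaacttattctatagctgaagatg
Abcb1b: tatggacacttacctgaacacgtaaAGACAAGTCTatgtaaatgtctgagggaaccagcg
1700007K13Rik: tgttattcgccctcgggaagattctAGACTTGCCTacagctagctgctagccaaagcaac

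The 12 largest falls lay mostly outside the p53 lists. Gipc2, a PDZ-domain protein, fell by 1.86 (SE 0.26, adjusted p = 0.000705). Its signal was 6.65, 6.21, 6.14 and 4.64 log2 in RbKO_DEN and 4.30, 4.11, 3.93, 4.86 and 4.87 log2 in DKO_DEN, so that the set 2 array RbKO_DEN replicate 4 lay among the double mutants. Gria3, a subunit of AMPA-type glutamate receptors, fell by 1.69 (SE 0.25, adjusted p = 0.000926). It read 7.35, 7.08, 7.21 and 7.86 log2 in RbKO_DEN and 5.34, 5.64, 6.24, 6.97 and 6.12 log2 in DKO_DEN, and the groups did not overlap. Abcb1b, one of the mouse genes of the drug efflux pump P-glycoprotein, fell by 1.59 (SE 0.29, adjusted p = 0.00596), from 6.55, 5.38, 5.62 and 5.58 log2 to 4.32, 4.02, 4.12, 5.14 and 4.46 log2, also without overlap. Further falls were those of Capsl (-1.72), the collagen lysyl hydroxylase Plod2 (-1.60), 1700007K13Rik (-1.56), the mitochondrial creatine kinase Ckmt1 (-1.44) and Armcx4 (-1.28). The calls of Gipc2, Gria3, Abcb1b, Capsl, Plod2, 1700007K13Rik, Ckmt1, Armcx4 and Ephx1 all held without each of the 9 arrays. Those of Gdpd3, an enzyme of lysophospholipid breakdown (-1.78), Mybl1, a MYB family transcription factor (-1.54), and Hmcn1, the extracellular matrix protein hemicentin (-1.37), did not. Gdpd3 was lost without each of 4 arrays (adjusted p up to 0.0874 without RbKO_DEN replicate 2), Mybl1 without each of 2 (up to 0.0668 without DKO_DEN replicate 2) and Hmcn1 without each of the 9 (up to 0.141 without RbKO_DEN replicate 4). In set 1 alone Gdpd3 had -1.79 and was not called. On Hmcn1, RbKO_DEN replicate 4 read 8.87 log2 and the other RbKO_DEN arrays 6.91 to 7.22 log2.

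**Figure D2:**
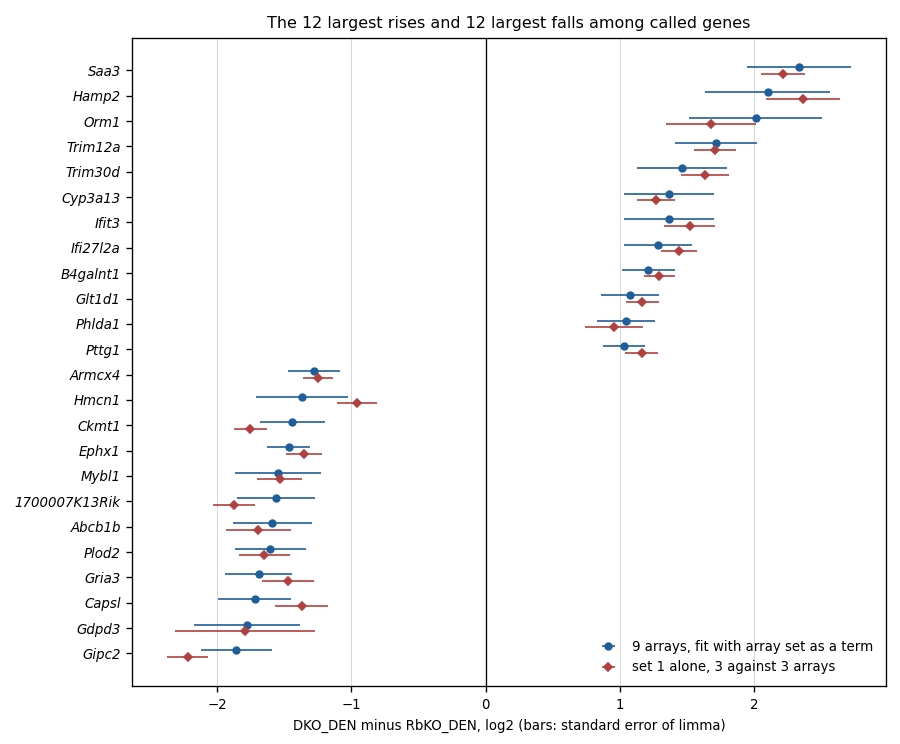
Log2 difference of DKO_DEN minus RbKO_DEN (horizontal axis) for the 12 largest rises and 12 largest falls among called genes (vertical axis); circles are the fit to all sets, diamonds set 1 alone, and bars the standard error of limma. The genes were chosen to have the same sign in both estimates, and set 1 is part of the fit to all sets. In that fit the differences ran from -1.86 (Gipc2) to 2.34 (Saa3).

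The falls in the double mutant often concerned genes that DEN had raised in livers of control genotype. In WT_DEN against WT_untreated 636 genes (3.99%) were called, of which 331 (2.08% of those tested) were higher and 305 (1.91%) lower. Of the 141 genes lower in DKO_DEN, 46 (32.6%) were among those 331 and 2 among the 305. The DEN comparison shares no array with that of DKO_DEN and RbKO_DEN, but both come from the same fit with shared set terms. Their errors are therefore not independent. The DEN comparison was added after the data had been seen. Of the 10 called p53 genes 9 were among those raised by DEN. Ccng1 had risen by 2.49 in control livers, Ephx1 by 2.31, Plk2 by 1.74, Mdm2 by 1.44, Polk by 1.29 and Fas by 0.87. Among the largest falls, 1700007K13Rik had risen by 3.05, Mybl1 by 2.08, Gria3 by 1.90, Gipc2 by 1.31 and Ckmt1 by 1.25. Several of these were not back at the untreated level in the double mutant. Ccng1 was 8.73 to 9.86 log2 in DKO_DEN and 6.93 to 7.26 log2 in DKO_untreated.

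Few genes rose, and acute phase genes had the largest changes among them. Many acute phase genes, though not all of this list, encode proteins that the liver secretes into blood during inflammation. Of 27 tested, 4 (14.8%, against 0.144% of all genes) were called higher and none lower, 23 lay above 0 and the median was 0.15 (0.25 in set 1 alone). Within set 1 alone, 7 were called higher and 1, Serpina3n, lower. Saa3, a serum amyloid A apolipoprotein (probe set 10563597, chromosome 7), read 6.28, 6.77, 6.89 and 4.73 log2 in RbKO_DEN and 8.88, 8.70, 9.01, 8.67 and 8.56 log2 in DKO_DEN. All DKO_DEN arrays were higher, by 2.34 in the fit (SE 0.39, adjusted p = 0.00187), or 5.05-fold. WT_DEN arrays spread from 4.40 to 8.85 log2, which covers most of both groups. Orm1, an acid glycoprotein, read 7.08, 8.72, 8.29 and 4.53 log2 in RbKO_DEN and 9.72, 9.34, 10.04, 9.07 and 8.81 log2 in DKO_DEN, without overlap, a rise of 2.01 (SE 0.50, adjusted p = 0.0449). Hamp2, a relative of the iron hormone hepcidin, rose by 2.10 (SE 0.47, adjusted p = 0.0230). Its values were 6.84, 8.13, 7.24 and 8.34 log2 in RbKO_DEN and 9.72, 10.11, 9.47, 7.72 and 8.88 log2 in DKO_DEN. DKO_DEN replicate 4 was inside the RbKO_DEN range. Mt1, a metallothionein, rose by 0.87 (SE 0.20, adjusted p = 0.0353). Saa1 (1.54), Orm2 (1.45), Hamp (1.23) and Mt2 (1.01) were not called, and the fibrinogen genes Fga (0.10), Fgb (0.00) and Fgg (0.04) had values near 0.

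The 4 acute phase calls rested unequally on single arrays, and 1 was left without RbKO_DEN replicate 1 or 3 or DKO_DEN replicate 1 or 2. Saa3 was called without each of the 9 arrays. With no set term none of the 4 was called (adjusted p = 0.115 for Saa3). Hamp2 was lost without each of 6 arrays (up to 0.0991 without DKO_DEN replicate 2), Orm1 without each of 8 (up to 0.167 without RbKO_DEN replicate 1) and Mt1 without each of 6 (up to 0.125 without RbKO_DEN replicate 1). Markers of macrophages and Kupffer cells had 0 called of 15 tested (1 higher at an unadjusted p under 0.05 in limma), with a median of 0.07. Their mean over the list was 5.58 to 5.89 log2 in RbKO_DEN and 5.62 to 6.08 log2 in DKO_DEN. In set 1 alone 1 of these markers was called higher. Their mean there was 5.74 to 5.89 log2 in RbKO_DEN and 5.93 to 6.08 log2 in DKO_DEN, without overlap. Their part in the acute phase result was not tested.

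Interferon-related genes were among the largest rises, though the list of interferon-stimulated genes had 1 called gene of 22 (4.55%, against 0.144% of all genes). That gene was Ifit3, an antiviral RNA-binding protein family member, with a rise of 1.36 (SE 0.33, adjusted p = 0.0437). It read 5.82, 6.14, 5.80 and 5.25 log2 in RbKO_DEN and 7.35, 7.07, 7.90, 6.39 and 6.14 log2 in DKO_DEN, and the lowest DKO_DEN array met the highest RbKO_DEN array. Oasl2 (0.76) and Ifit1 (0.57) were not called. The list median was 0.19. For 12 tested genes of antigen presentation by MHC class I it was 0.17 with 0 called (1 higher at an unadjusted p under 0.05 in limma). In set 1 alone 3 interferon-stimulated and 2 MHC class I genes were called higher, with medians of 0.19 and 0.28. The interferon list mean in set 1 was 5.45 to 5.63 log2 in RbKO_DEN and 5.69 to 5.97 log2 in DKO_DEN. It was 5.51 log2 on RbKO_DEN replicate 4 and 5.49 and 5.42 log2 on DKO_DEN replicates 4 and 5. For MHC class I the same values were 7.13 to 7.16, 7.34 to 7.49, 6.84, and 6.87 and 6.94 log2. The part of the array set was not tested. Ifi27l2a, another interferon-inducible gene, rose by 1.28 (SE 0.26, adjusted p = 0.0121). The call of Ifit3 was lost without each of 7 arrays (adjusted p up to 0.122 without DKO_DEN replicate 3) and that of Ifi27l2a without each of 2 (up to 0.0548 without RbKO_DEN replicate 1).

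Trim12a and Trim30d, antiviral-type tripartite motif genes that both lie on chromosome 7, separated the groups. Trim12a read 2.62, 2.92, 3.18 and 2.63 log2 in RbKO_DEN and 4.81, 4.52, 4.50, 4.88 and 4.51 log2 in DKO_DEN. The difference in the fit was 1.72 (SE 0.31, adjusted p = 0.00438). All 4 RbKO_DEN arrays were under the 3.33 log2 below which a gene's mean counted as dim, and Trim12a passed that filter, with a mean of 3.37 log2, only through the double mutant arrays, since its mean on the other 17 arrays was 2.84 log2. Its difference is therefore measured against a level that may be background, and passing the filter already required some arrays to be high. The 3 DKO_untreated arrays read 3.98, 4.68 and 4.07 log2, and of the other DEN arrays only WT_DEN replicate 3, at 4.65 log2, was as high. Trim30d followed the same order, with 3.92 to 4.12 log2 in RbKO_DEN, 5.26 to 6.47 log2 in DKO_DEN, 4.69 to 5.56 log2 in DKO_untreated and 5.39 log2 on WT_DEN replicate 3. Its rise was 1.46 (SE 0.33, adjusted p = 0.0287). Without DKO_DEN replicate 1 the adjusted p of Trim30d was 0.119, and 6 of the 9 arrays ended its call, while none ended that of Trim12a. These genes are from families of near-identical copies, between which array probes can be shared.

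A small number of the genes called in DKO_DEN also differed between the double mutant and control livers without DEN. In DKO_untreated against WT_untreated 177 genes (1.11%) were called, 138 (0.865%) higher and 39 (0.244%) lower. Of the 23 genes higher in DKO_DEN than in RbKO_DEN, 5 were among the 138: B4galnt1, Glt1d1, Hamp2, Pttg1 and Trim30d. Of the 141 lower genes, 3 were among the 39: Gdpd3, Hddc3 and Rdh9. None went the opposite way. Glt1d1, which rose by 1.07 in DKO_DEN, was lost without DKO_DEN replicate 1 (adjusted p = 0.0509). B4galnt1, an enzyme of ganglioside synthesis, rose by 1.21 in DKO_DEN (SE 0.20, adjusted p = 0.00174) and was 5.81 to 6.05 log2 in DKO_untreated. RbKO_DEN and DKO_DEN overlapped on it, with RbKO_DEN replicate 4 at 5.36 log2 and DKO_DEN replicate 4 at 4.59 log2. The call of B4galnt1 held without each array in turn but not without the set term (adjusted p = 0.395). Gdpd3 was 3.44 to 3.78 log2 in DKO_untreated and 6.23 to 7.63 log2 in WT_untreated. On DKO_DEN it was 5.82, 5.94, 3.47, 3.75 and 3.93 log2, and its 4 RbKO_DEN arrays read 6.48, 7.40, 6.72 and 4.96 log2. This comparison shares no array with that of DKO_DEN and RbKO_DEN, but the set terms of the fit are shared. It was also added after the data had been seen.

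**Figure D3:**
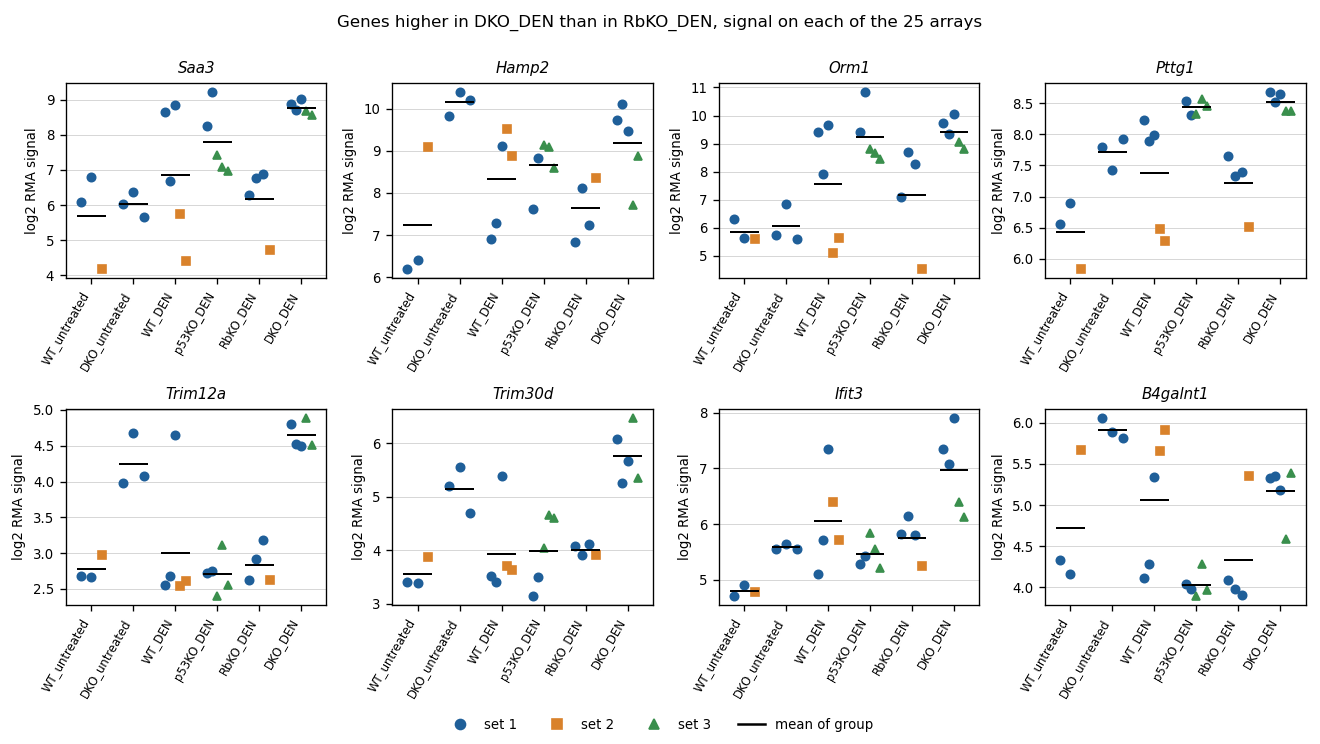
Log2 RMA signal (vertical axis) of 8 genes called higher in DKO_DEN than in RbKO_DEN, for the 6 groups (horizontal axis); each point is an array, its shape and colour the array set, and the bar the group mean. Saa3, Orm1, Pttg1, Trim12a and Trim30d have all DKO_DEN points above all RbKO_DEN points, and Trim12a and Trim30d are also high in DKO_untreated and on 1 WT_DEN array.

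Cell cycle genes as a whole did not pass the test, with a few exceptions. Of 39 tested genes of mitosis and cytokinesis 0 were called, with a median of -0.03. In set 1 alone 1 of the 39, Sgo1, was called, and the median was 0.21, so the sign of the median depended on the array sets. Of 39 tested E2F targets and replication genes 0 were called (median -0.08), and 0 of 16 pocket proteins, E2F factors and cyclin E genes, of which 14 lay below 0 (median -0.25). Examples are E2f3 at -0.33, Rbl1 at -0.39 and Ccne1 at -0.25. At an unadjusted p under 0.05, limma gave 1 higher and 0 lower in the mitosis list, 1 higher and 5 lower in the E2F target list and 0 higher and 2 lower among the pocket proteins and E2F factors, beside 2200 of all genes. Pttg1, encoding securin, which holds sister chromatids together until anaphase, rose by 1.03 (SE 0.16, adjusted p = 0.000926), from 7.65, 7.33, 7.39 and 6.52 log2 to 8.69, 8.52, 8.65, 8.38 and 8.37 log2, without overlap. Ccnd1, the D-type cyclin that activates the kinases of Rb, fell by 0.97 (SE 0.21, adjusted p = 0.0174). It read 7.64, 7.16, 7.26 and 6.45 log2 in RbKO_DEN and 6.30, 6.25, 6.39, 6.70 and 6.31 log2 in DKO_DEN, where RbKO_DEN replicate 4 lay among the double mutants. It was the only called gene of 11 D cyclins, their kinases and inhibitors (9.09%, against 0.884% of all genes). Its call was lost without RbKO_DEN replicate 1 (adjusted p = 0.0972). Pttg1 held without each array.

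Some endothelial markers were lower in the double mutant. Of 17 tested, 4 were called lower (23.5% against 0.884% of all genes) and none higher, 14 lay below 0, and the median was -0.36 (-0.39 in set 1 alone). Tek, the angiopoietin receptor, read 6.57, 6.27, 6.27 and 5.94 log2 in RbKO_DEN and 5.38, 5.49, 5.69, 5.12 and 5.17 log2 in DKO_DEN, without overlap, a fall of 0.92 (SE 0.17, adjusted p = 0.00485). The adhesion molecule Pecam1 fell by 0.75 (adjusted p = 0.00928), the sialomucin Emcn by 0.74 (adjusted p = 0.0243) and the transcription factor Erg by 0.58 (adjusted p = 0.0159). Vwf (-0.08) and Robo4 (0.04) had values near 0. The mean over the 17 was 5.60 to 5.83 log2 in RbKO_DEN and 5.18 to 5.48 log2 in DKO_DEN, with no overlap. Markers of stellate cells and matrix had 0 of 20 called, 3 lower at an unadjusted p under 0.05 in limma and 16 below 0, and their mean was 5.97 to 6.03 log2 in RbKO_DEN and 5.70 to 5.91 log2 in DKO_DEN, also with no overlap. Their part in the endothelial result was not tested. Neither fall was particular to the double mutant. In p53KO_DEN against WT_DEN the medians were -0.38 for endothelium (1 called lower) and -0.22 for stellate cells and matrix (2 called lower). The endothelial mean was 5.76 to 6.03 log2 in WT_DEN and 5.32 to 5.57 log2 in p53KO_DEN. That of stellate cells and matrix was 5.98 to 6.13 log2 and 5.67 to 5.84 log2. In DKO_DEN against RbKO_DEN, hepatocyte markers had a median of -0.06 with 0 of 9 called (1 lower at an unadjusted p under 0.05 in limma). In bulk liver RNA, fewer cells of a type and less RNA per cell cannot be told apart. The count of 4 became 1 without RbKO_DEN replicate 1, 2 when the arrays were quantile normalized again, 6 with array weights and 0 with no set term. Pecam1 was lost without 1 array (adjusted p = 0.0520 without RbKO_DEN replicate 1), Erg without 2 (up to 0.0694 without the same array) and Emcn without 3 (up to 0.0843 without the same array). In set 1 alone Erg (-0.55) and Emcn (-0.52) were not called.

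Some further lists had 1 or 2 called genes, where 0.884% of all genes tested were called lower and 0.144% higher. Of 21 tested genes of PPARalpha, fatty acid oxidation and ketogenesis, 2 fell and 18 lay below 0 (median -0.24, or -0.11 in set 1 alone). Pdk4, the kinase that blocks entry of pyruvate into the citric acid cycle, fell by 1.05 (SE 0.19, adjusted p = 0.00535), with 6.77 to 7.81 log2 in RbKO_DEN and 5.89 to 6.30 log2 in DKO_DEN. Slc25a20, the mitochondrial carnitine carrier, fell by 0.48 (adjusted p = 0.0201). Gsr, glutathione reductase, fell by 0.76 (adjusted p = 0.0121) and was the 1 called gene of 23 Nrf2 targets, whose median was -0.23. Abcb4, the phospholipid exporter of bile, fell by 0.81 (adjusted p = 0.0117). Prom1 fell by 1.07 (adjusted p = 0.0117) and was the 1 called gene of 7 tested markers of cholangiocytes and progenitors, of which 5 lay above 0 (median 0.15). Ltf, a neutrophil granule gene, fell by 1.23 (adjusted p = 0.0347) and was the 1 called gene of 11 tested markers of neutrophils and myeloid precursors, of which 6 lay above 0 (median 0.04). Chac1, a glutathione-degrading ATF4 target, rose by 0.73 (adjusted p = 0.0458). The P450 gene Cyp3a13 rose by 1.37 (adjusted p = 0.0436). Pdk4, Abcb4 and Prom1 held without each array. Slc25a20 and Gsr were each lost without 2 arrays (up to 0.0843 and 0.0575 without RbKO_DEN replicate 1), Cyp3a13 without 8 (up to 0.154 without the same array), Ltf without 6 (up to 0.146 without the same array) and Chac1 without 6 (up to 0.157 without RbKO_DEN replicate 3). Within set 1 alone, Slc25a20 (-0.43) and Chac1 (0.79) were not called.

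Cyp2b9 and Cyp2b13, related P450 genes of the CAR and cytochrome P450 list, had large but uneven values. Cyp2b9 read 10.04, 10.13, 10.06 and 3.59 log2 in RbKO_DEN and 3.80, 9.33, 4.00, 9.11 and 5.32 log2 in DKO_DEN. Low arrays occurred in both groups, and the difference of -3.38 (SE 1.09) was not called (adjusted p = 0.139). Cyp2b13 had -2.75 (adjusted p = 0.0586) and was low on the same arrays. Cyp2b9 was also low on 1 of 5 WT_DEN arrays, at 3.70 log2.

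**Figure D4:**
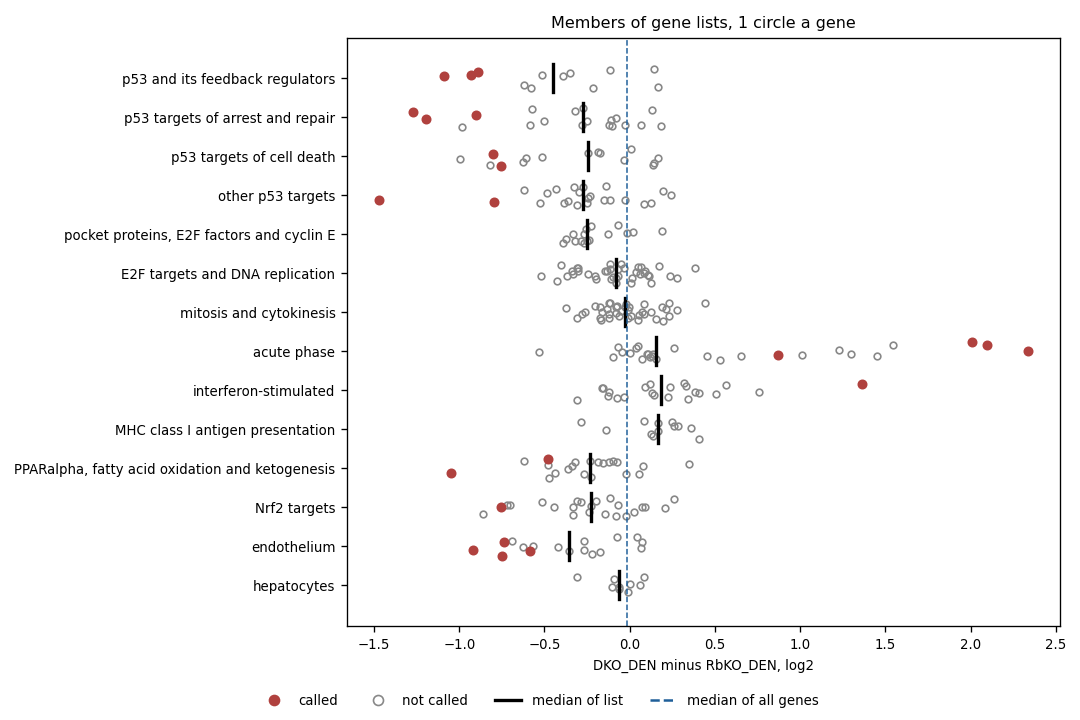
Log2 difference of DKO_DEN minus RbKO_DEN (horizontal axis) for the tested members of 14 gene lists (vertical axis); filled circles are called genes, open circles genes not called, the black bar is the list median and the dashed line the median of all genes tested. Called genes of the 4 p53 lists and of endothelium lie below 0 and those of the acute phase list above 0, while mitosis and hepatocyte lists hold no called gene.

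The same loss of p53 with Rb intact could be read from p53KO_DEN against WT_DEN, which shares no array with DKO_DEN against RbKO_DEN. Both comparisons come from the same fit, however, with shared set terms and a shared estimate of spread. WT_DEN and p53KO_DEN arrays help to set those terms, so the errors of the comparisons are not independent. In p53KO_DEN against WT_DEN 284 genes (1.78%) were called, 113 higher (0.708%) and 171 lower (1.07%). Of the 164 genes, 38 were called in both in the same direction, 37 of them lower. These are 23.2% of the 164 and 13.4% of the 284. Of the 141 lower genes, 129 had a negative value in p53KO_DEN against WT_DEN. Of the 23 higher genes, 14 had a positive value. The median over all genes tested was -0.01 in p53KO_DEN against WT_DEN. Among genes lower in both, Gria3 had -1.77 with Rb and -1.69 without, 1700007K13Rik -1.74 and -1.56, Ephx1 -1.68 and -1.47, Ckmt1 -1.29 and -1.44, Dglucy -1.14 and -0.80, and Mdm2 -0.97 and -1.09. Pttg1, the only gene higher in both, had 0.63 and 1.03. The p53 lists had 10 genes called lower in each comparison, 5 of them in both, with a median of -0.25 with Rb and -0.28 without.

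Whether the p53 effect differed by Rb status was tested directly. In the difference between the 2 effects 68 genes (0.426%) were called, 16 higher (0.1%) and 52 lower (0.326%), and 12 of the 164 were among them. The balance of directions was not stable. It was 140 higher and 70 lower in set 1 only, 73 higher and 66 lower without set 3, and 7 higher and 5 lower without DKO_DEN replicate 5. None of the 69 tested p53 genes was called in it, and 6 higher and 5 lower had an unadjusted p under 0.05 in limma. Trim12a had -0.44 with Rb and 1.72 without, a difference of 2.16 (SE 0.39, adjusted p = 0.0214). It passed the signal filter only through the double mutant arrays, with a mean of 2.84 log2 on the other 17 arrays. Its value with Rb may therefore be measured on background, and its p-value is only a description. Trim30d differed by 1.85 and B4galnt1 by 1.64 in the same sense, and for Trim12a and Trim30d WT_DEN replicate 3 was high among the controls. Phlda1 differed by 1.38 and H2-Bl, a class I gene, by 1.39. In DKO_DEN against RbKO_DEN, Phlda1 rose by 1.05, a call lost without each of 2 arrays (adjusted p up to 0.0795 without RbKO_DEN replicate 1). Capsl had -0.01 with Rb and -1.72 without, and Gipc2 -0.30 and -1.86. Snx7, a sorting nexin, rose with p53 loss when Rb was intact (0.69) and fell when it was not (-0.83), a difference of -1.52 (SE 0.21, adjusted p = 0.00230). Rsph4a, a radial spoke gene of motile cilia, had 2.28 with Rb and -0.04 without. For Mns1, also a gene of motile cilia, the difference was -1.46. The count of 68 is not stable to the choice of arrays. It ran from 6 without RbKO_DEN replicate 4 to 303 without DKO_DEN replicate 4, with 14 without RbKO_DEN replicate 3 or DKO_DEN replicate 1, 8 without DKO_DEN replicate 2, 104 without DKO_DEN replicate 3 and 12 without DKO_DEN replicate 5. Among the other genotypes it was 299 and 229 without WT_DEN replicates 1 and 2, 6 and 25 without WT_DEN replicates 4 and 5, and 11, 41 and 26 without p53KO_DEN replicates 1, 2 and 3. Of the 10 genes named, the calls of B4galnt1 and Snx7 held without each of the 19 DEN arrays. With no set term B4galnt1 was not called (adjusted p = 0.135). The call of Trim12a was lost without 1 array (adjusted p = 0.0672 without RbKO_DEN replicate 4), and those of Trim30d, H2-Bl, Phlda1, Rsph4a, Capsl, Gipc2 and Mns1 without 6 to 13 arrays.

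**Figure D5:**
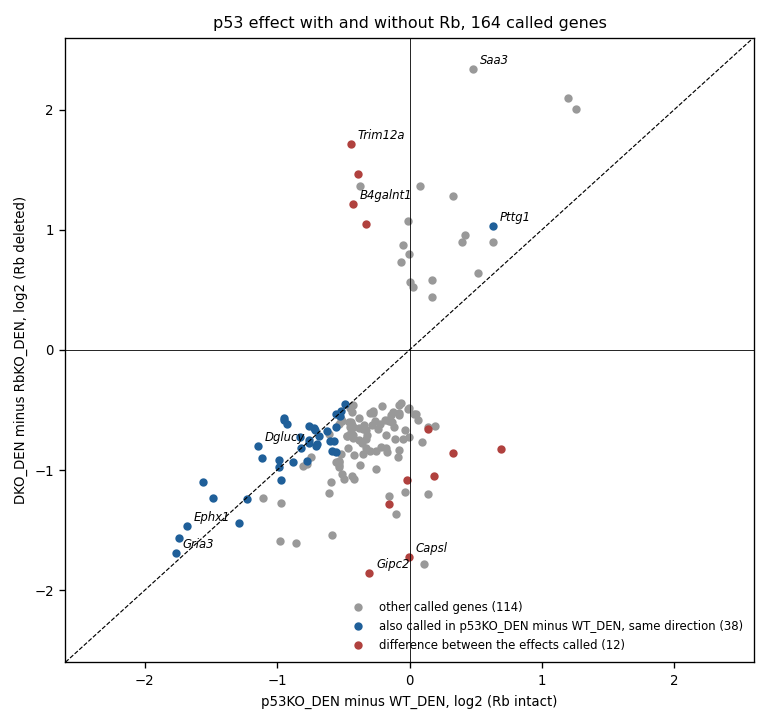
Log2 effect of p53 loss with Rb intact (p53KO_DEN minus WT_DEN, horizontal axis) and with Rb deleted (DKO_DEN minus RbKO_DEN, vertical axis) for the 164 genes called in the latter, 1 point a gene, with the line of equal effects dashed. Blue points are the 38 genes called in both comparisons in the same direction, a choice that puts them on the same side of 0 on both axes. Red points are the 12 with a called difference, such as B4galnt1 and Capsl, and lie off the line by that choice.

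The chromosomal neighbourhood of the targeted genes was also read. Of the 50 tested genes nearest to Trp53 on chromosome 11, 0 were called, with a median of -0.02 and a lowest adjusted p of 0.146. Of these 50, 6 had an unadjusted p under 0.05 in limma, beside 2200 of the 15951 genes tested. Of the 50 nearest to Rb1 on chromosome 14, 1 was called, Lacc1, an immune metabolic enzyme, which fell by 0.77, and 6 had an unadjusted p under 0.05. That 1 of 50 is close to the 1.03% called among all genes tested.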

How the data were processed

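Total RNA was hybridized to 1-colour Affymetrix mouse arrays, per the labels' protocols. The deposited values are log2 signals that the authors made with RMA in Affymetrix Expression Console 1.1, per the submitters' processing notes; the genome build and whether all arrays were normalized together are not given in the sources used here. Of 35555 probe sets, the 21789 with 1 gene symbol in the platform annotation were kept. The brightest probe set of each of 19938 genes was used, and 3987 genes with a mean under the 20th percentile (3.33 log2) were left out. With limma 3.58.1 (lmFit, eBayes) in R 4.3.3, a model of group means plus the array set took in all 25 arrays; tests were two-sided and p-values adjusted by Benjamini-Hochberg over 15951 genes. SE is limma's moderated standard error. The fit was tested on simulated data. Named genes are the target genes, the 12 called genes that rose most and the 12 that fell most, where set 1 gave the same sign, up to 5 each way for the difference between the p53 effects, and up to 4 of a list in order of p. Genes shown beyond this rule, as other members of a list, were chosen after their values were seen. The groups, gene lists and members were chosen with earlier results of these data known. RefSeq tables gave promoter windows and gene neighbours. Alternatives were other set terms, filters, probe set rules, normalizations, eBayes settings, Xist as a covariate and each RbKO_DEN and DKO_DEN array left out. A fit without 2 arrays and, for the difference between the p53 effects, fits without each WT_DEN and p53KO_DEN array were added after seeing the data.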

Additional observations from a re-analysis of the deposited data

Results flagged for a closer look

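The p53 effect differed between livers without and with Rb in 68 genes by the test of that difference. The 5 largest positive differences, effect without Rb minus effect with Rb, were those of Trim12a (2.16), Trim30d (1.85), B4galnt1 (1.64), H2-Bl (1.39) and Phlda1 (1.38). The 5 largest negative ones were those of Rsph4a (-2.32), Capsl (-1.72), Gipc2 (-1.55), Snx7 (-1.52) and Mns1 (-1.46). With each of the 19 DEN arrays left out in turn, B4galnt1 and Snx7 kept the call, Trim12a lost it without 1 array, and the other 7 lost it without 6 to 13 arrays. B4galnt1 was not called with no set term (adjusted p = 0.135). Trim12a passed the signal filter only through the double mutant arrays, and its level on most other arrays may be background.

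Some arrays stood apart from their group in the share of the group's range taken by the gap to the nearest array. Chance marks about 1 in 20 groups in this way, and 108 pairs of gene and group were examined. RbKO_DEN replicate 4, the only array of the comparison in set 2, stood apart high on B4galnt1 (gap share 0.871), Glt1d1 (0.876), Hmcn1 (0.845) and Pdk4 (0.831), and low on Ckmt1 (0.846) and Fas (0.848). RbKO_DEN replicate 2 stood apart low on Polk (0.958) and Eda2r (0.842). DKO_DEN replicate 4, an array of set 3, stood apart low on B4galnt1 (0.743) and high on Armcx4 (0.814) and Pvt1 (0.792). These values are not corrected for the array set, whose part in them was not tested.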

How the results depend on the processing

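For DKO_DEN against RbKO_DEN, the 164 calls became 30 with no set term, 98 with the set as a random block, 276 in a fit to set 1 only with all groups, 101 in a fit to the DEN arrays, 82 when quantile normalized again and 280 with array weights. Leaving out 1 array gave 65 to 200. With each array centred on its median 245 genes were called, 92% lower, and with quantile normalization again 73% were lower, against 86%. In set 1 alone the 223 calls became 456 with trend and robust settings and 88 to 161 with 1 array left out. For the difference between the p53 effects, the 68 calls became 1 with no set term, 210 in set 1 only, 11 in the DEN arrays only, 5 without set 2, 139 without set 3, 123 with a filter at the 40th percentile, 45 with centred arrays, 31 when quantile normalized again, 16 with array weights, 11 without the 2 arrays that carried both Xist and Y-linked signal, and 6 to 303 with 1 of the 19 DEN arrays left out; the cause was not tested. Without those 2 arrays the 164 became 115. For the 54 genes described in DKO_DEN against RbKO_DEN for which the alternatives were run, no value changed direction; 245 lost a call, 23 gained one and 1025 did neither. For the 10 genes named in the difference between the p53 effects, no value changed direction, while 122 values lost the call and 217 did not. No paired analysis was possible because the labels give no replicate numbers shared between the groups.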
